A study of Saccharomyces cerevisiae with 14 samples.

Results

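The mitochondrial ribosomal protein genes of *Saccharomyces cerevisiae* were taken as all nuclear genes whose standard name is MRPL, MRPS, MRP or RSM followed directly by a number. The rule found 67 genes among the 6612 transcripts in the files: 34 MRPL, 9 MRPS, 11 RSM and 13 MRP genes. Of these, 38 encode proteins of the large subunit and 28 of the small subunit. The remaining gene, *MRP8*, meets the naming rule, but its annotation states that it was only originally thought to encode a mitochondrial ribosomal protein.

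Total RNA, depleted of ribosomal RNA, was sequenced from budding yeast carrying either wild-type *ARP8* or *arp8-AA*, in 14 libraries. Arp8 is a subunit of the INO80 chromatin remodeler, and the comparison asks whether loss of its phosphorylation by the kinase DDK alters transcription. Asynchronous cultures gave 3 libraries of each genotype, and cultures released from α-factor arrest gave 2 libraries of each genotype at 10 min (described in the study as G1 phase) and 2 at 20 min (early S phase). The *ARP8* strain was yCFK51, *MATa his3Δ1 leu2Δ0 met15Δ0 ura3Δ0*, and the *arp8-AA* strain was yPB4, *MATa his3Δ1 leu2Δ0 ura3Δ0* with serines 65 and 233 of Arp8 changed to alanine at the endogenous gene. The *met15* deletion is listed for the *ARP8* strain alone, but *MET17*, the gene also named *MET15*, had 0 estimated counts in all 14 libraries. A single strain is named for each genotype, so that genotype and strain cannot be told apart. *ARP8* itself was transcribed in every library, and its point mutations cannot be seen in a count table.

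Mitochondrial ribosomes translate the few proteins encoded in mitochondrial DNA, most of them subunits of the respiratory chain and the ATP synthase. Nearly all of their proteins are encoded in the nucleus, made in the cytosol and imported, while the ribosomal RNAs and the small-subunit protein Var1 come from the mitochondrial genome. Many yeast mRNAs for this machinery are bound behind their coding sequence by Puf3, an RNA-binding protein known to promote their decay in cells growing on glucose. The cultures here were grown in rich glucose medium.

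Most of these genes had a sequence motif behind the coding region. The Puf3 motif TGTANATA was searched on the coding strand in the 200 bases after each stop codon, in the R64 genome with RefSeq gene models. It was present for 65 of 67 genes (97.0%), against 844 of 5898 nuclear coding genes (14.3%) and 6 of 138 cytosolic ribosomal protein genes (4.35%). The 2 genes without it were *MRP8* and *RSM22*, which encodes a methyltransferase-like protein of the small subunit. Among the 79 sites, 52 genes had 1, 12 had 2 and 1, *RSM19*, had 3. The sites below belong to genes whose levels are described further on, to the gene with 3 sites, and to the sites with the shortest distance or a rare letter, and capitals mark the motif.
MRPL6 (chrVIII:392538-392561, minus strand): gaatacctTGTAAATAtcctatga
MRPL16 (chrII:146903-146926, plus strand): tgtatacaTGTATATAactattga
RSM23 (chrVII:267629-267652, minus strand): atttctcaTGTACATAtaaataga
MRPL37 (chrII:741641-741664, plus strand): ggtatcctTGTAAATAaatatgtg
MRP2 (chrXVI:876217-876240, minus strand): tacgcactTGTAAATAaatacatg
MRPS12 (chrXIV:694272-694295, minus strand): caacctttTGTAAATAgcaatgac
RSM18 (chrV:253889-253912, minus strand): gttctgtcTGTAAATAtacaatat
MRPL39 (chrXIII:251210-251233, minus strand): atttatccTGTAAATAagtaatgg
MRPL4 (chrXII:1015470-1015493, plus strand): ctctctccTGTAAATAtatatata
RSM19 (chrXIV:695027-695050, minus strand): ggatctagTGTATATAgatttcta
RSM19 (chrXIV:694999-695022, minus strand): atatatcaTGTAAATAagatcaag
RSM19 (chrXIV:694971-694994, minus strand): actcgggcTGTATATAtatatata
MRPS5 (chrII:722314-722336, plus strand): aatactaTGTACATAcacacgca
MRPL3 (chrXIII:323057-323080, plus strand): tgccatttTGTAGATAgagaactc

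The free letter of the motif (N) was A in 36 sites, T in 25, C in 17 and G in 1, the *MRPL3* site above. The second base before the motif was C in 52 of the 79 sites, as in the sites of *MRPL6* (ct), *RSM23* (ca) and *MRPL37* (ct). The first site began between 8 and 139 bases after the stop codon, with a median of 51 bases and quartiles of 33 and 74. In the other genes with a motif, the median distance was 60 bases. A match is a description of the letters and not a measurement of binding.

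**Figure D1:**
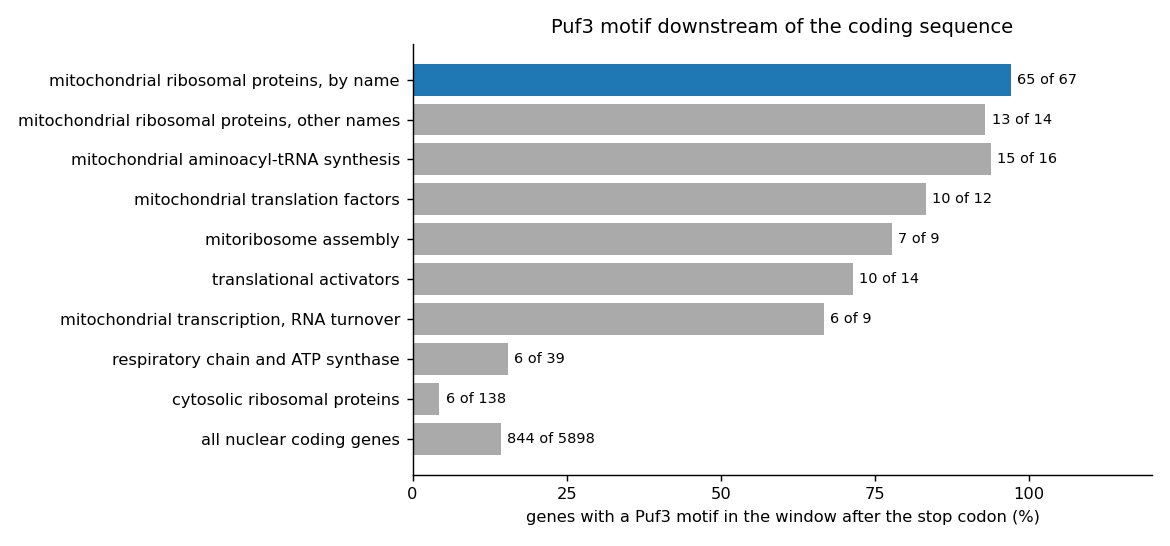
Share of genes in each list with at least 1 Puf3 motif in the 200 bases after the stop codon (horizontal axis, percent), with counts beside the bars. The mitochondrial ribosomal protein genes stand at 65 of 67, and the other lists of the mitochondrial translation machinery between 71.4 and 93.8%. Mitochondrial transcription and RNA turnover stands at 6 of 9 (66.7%), and the cytosolic ribosomal protein genes at 6 of 138.

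Other genes of mitochondrial translation shared the motif. It was found for 13 of 14 mitochondrial ribosomal protein genes with other names, 15 of 16 genes of mitochondrial aminoacyl-tRNA synthesis, 10 of 12 translation factor genes, 7 of 9 genes for ribosome assembly and 10 of 14 translational activators. It was found for 6 of 39 nuclear genes of the respiratory chain and ATP synthase (15.4%), a share near that of all genes. In the promoter window, from 250 bases before to 50 bases from the start of the coding sequence and on both strands, no motif searched reached a comparable share. TTACCCG, bound by the factor Reb1, was in 14.9% of the genes and 7.21% of all coding genes. CCAAT, bound by the Hap complex, was in 41.8 and 43.8%. AATTTT was in 41.8 and 52.4%, the longer AAAATTTT, which contains it, in 7.46 and 9.16%, and GATGAG in 16.4 and 19.9%.

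The genes were spread over 14 chromosomes and were short, with a median coding length of 699 bases (range 213 to 1887) against 1185 bases for all coding genes. Only *MRPL44* has an intron in its coding sequence. A bacterial homologue is assigned to 41 of the proteins (24 large, 17 small), and 24 are specific to mitochondria (14 large, 10 small). No stretch of 31 bases is shared with another RefSeq coding sequence for 65 genes. The 683 transcripts in the files without a RefSeq match were not compared. *MRPL51* shares 74.6% of such stretches and *MRPL19* 18.6%, each with an overlapping reading frame, and these frames held at most 6.43 estimated counts in any library. The counting used no strand information, which adds uncertainty at 2 genes: *MRPL39* lies beside the reading frame YML009W-B (mean 129 estimated counts) and *MRPL10* beside YNL285W (mean 55.9).

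Levels were compared between genes in TPM, in which each transcript's counts are divided by its effective length and scaled to the library. The mean TPM over 14 libraries ranged from 0.353 for *MRPL4* to 301 for *MRPL39*, with a median of 63.96. This was above the median of all transcripts, 22.5 TPM, for 60 of 67 genes, and below the medians of the nuclear respiratory chain and ATP synthase genes (164 TPM) and the cytosolic ribosomal protein genes (2668 TPM). Between 20 and 100 TPM lay 50 genes. The median was 57.1 TPM for the large subunit and 70.8 TPM for the small subunit.

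**Figure D2:**
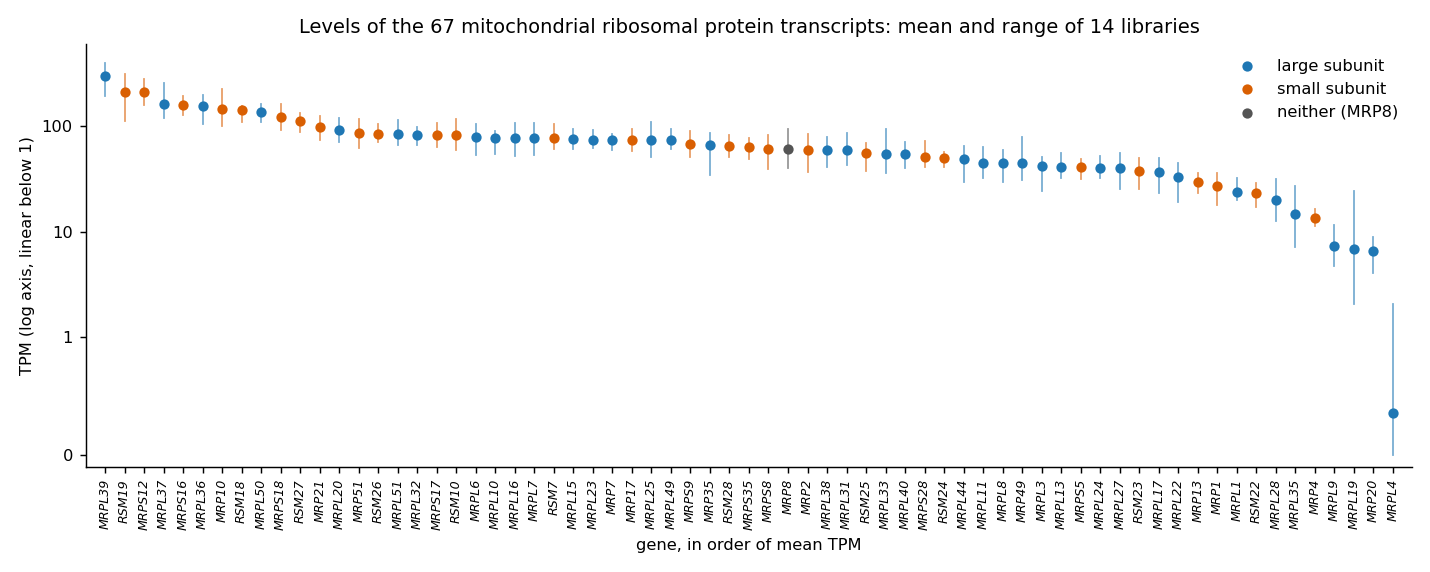
TPM of the 67 genes in order of their mean (points), with the lowest and highest of 14 libraries (vertical lines), coloured by subunit. The vertical axis is logarithmic and linear below 1 TPM. Most genes lie between 20 and 100 TPM, and *MRPL4* lies apart at 0.353 TPM.

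The 5 highest genes by TPM encode small proteins. *MRPL39*, for the bL33 protein of the large subunit, ranged from 194 to 400 TPM with a median of 305 TPM over the libraries. *RSM19*, for uS19, ranged from 112 to 314 TPM with a median of 207, and *MRPS12*, for uS12, which in bacteria lies at the decoding site, from 159 to 280 TPM with a median of 211. *MRPL37* (mL54, mean 162 TPM) and *MRPS16* (bS16, mean 159 TPM) followed. The ranges of these 5 genes overlapped, except that every library of *MRPL39* was above every library of *MRPS16*, by a margin of under 1 TPM. All 11 genes above 100 TPM had coding sequences of at most 654 bases. TPM of very short transcripts depends on the estimated fragment length. By CPM per kilobase (CPM are counts scaled to the library total) *MRPS12* stood first and *MRPL39* at place 2. *RSM19*, *MRPS16* and *MRPL37* stood at places 4, 6 and 9 by that measure, with *MRPL36* at 3 and *MRPS18* at 5.

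The lowest gene, *MRPL4*, encodes uL29, a protein near the exit of the peptide tunnel. It had between 0 and 6 estimated counts per library, with 0 counts in 5 libraries and 6 in *ARP8* asynchronous replicate 1. Its neighbours on chromosome XII, *LSM3* and *SEC39*, had 104 to 283 and 135 to 608 estimated counts. In all but 2 libraries *MRPL4* was under a floor of 3 counts, which corresponds to between 0.499 and 1.61 CPM, so that its level was at the limit of detection. The coding sequence and its Puf3 motif are present in the R64 reference.

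Above it stood 4 genes with low but measurable levels. *MRP20*, for uL23 at the tunnel exit, had 4.09 to 8.95 TPM, *MRPL9*, for uL3, 4.73 to 11.7 TPM and *MRP4*, for uS2 of the small subunit, 11.3 to 16.3 TPM. *MRPL19*, for uL11 at the base of the stalk, had 2.08 to 12.1 TPM in 13 libraries and 24.5 TPM in *ARP8* asynchronous replicate 1. The ranges of *MRP20*, *MRPL9* and *MRPL19* overlapped.

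Across libraries, the levels of single genes moved little. For the 59 genes with a mean of at least 20 CPM, the highest TPM was between 1.39 and 3.72 times the lowest, with a median of 1.76. TPM are not adjusted for differences in composition between libraries, which these ratios can also carry. The biological coefficient of variation, a spread beyond counting error, was taken from fits that include the replicate number as a block. It leaves out differences that libraries with the same replicate number share, and can understate the spread between replicates of a group. Its median was 0.0989 for the mitochondrial ribosomal protein genes and 0.103 for all transcripts in asynchronous cultures, and 0.137 and 0.139 after release.

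Library totals ranged from 1864995 to 6016858 estimated counts. Both libraries of asynchronous replicate 1 stood apart from the others of their genotype (chi-square per degree of freedom 11.8 and 11.5 in *ARP8* against 1.61 between replicates 2 and 3, and 8.15 and 5.42 in *arp8-AA* against 3.22). After release, the chi-square per degree of freedom between replicates 1 and 2 of a group was 20.5 to 37.5. These replicates differed in core histone genes, which are transcribed as cells enter S phase. At 10 min these took 0.113 and 0.541% of counts in *ARP8* and 0.0894 and 0.333% in *arp8-AA*, in replicates 1 and 2. The *MATa* gene *STE2* had at least 63.9 CPM in every library, and the *MATα* gene *STE3* at most 11.7. Another *MATa* gene, *MFA2*, had 2.20 to 31.4 CPM. It was above *STE3* in all asynchronous libraries and in replicate 1 at 10 min, and below it in the other released libraries. Mean fragment lengths implied by the effective lengths were 168 to 171 bases in asynchronous and 151 to 157 bases in released cells.

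In asynchronous cultures, the 67 genes took a larger part of the library in *arp8-AA*. They held 0.364, 0.377 and 0.369% of counts in the *ARP8* libraries and 0.442, 0.418 and 0.457% in the *arp8-AA* libraries, or 0.370% ± 0.00644 and 0.439% ± 0.0195 (SD, n = 3). The groups did not overlap, and this held for the large subunit (0.173 to 0.185% against 0.201 to 0.216%) and for the small subunit (0.184 to 0.191% against 0.212 to 0.236%). The share of cytosolic ribosomal protein genes was 21.6 to 23.8% in *ARP8* and 19.6 to 22.6% in *arp8-AA*, which overlapped. Transcripts of the mitochondrial genome took 1.59% ± 0.0734 in *ARP8* and 1.08% ± 0.133 in *arp8-AA* (SD, n = 3), without overlap. Their share was also lower in *arp8-AA* after release, with 1.69 to 1.84% in *ARP8* and 1.00 to 1.49% in *arp8-AA* at 10 min. At 20 min it was 1.414 to 1.873% and 1.184 to 1.409%, so that the groups nearly touched. All these are shares of a library, and the amount of RNA per cell was not measured.

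**Figure D3:**
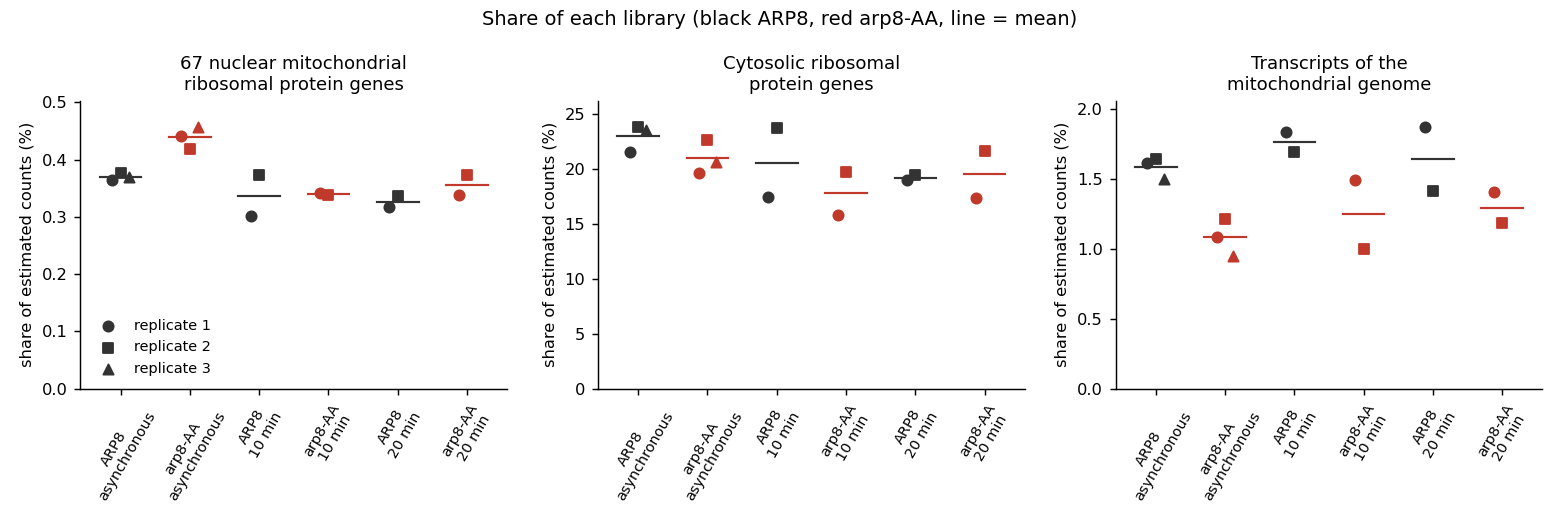
Percent of estimated counts per library taken by the 67 genes, by cytosolic ribosomal protein genes and by mitochondrially encoded transcripts. Points are libraries, with symbols for replicates, black for *ARP8* and red for *arp8-AA*, and lines are group means. In asynchronous cultures the 3 *arp8-AA* libraries lie above the 3 *ARP8* libraries in the panel of the 67 genes and below them in the panel of the mitochondrial genome.

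Gene by gene, the difference between genotypes in asynchronous cultures was small and mostly of one sign. The log2 fold change of *arp8-AA* against *ARP8* was above 0 for 58 of the 65 genes with enough counts to be tested (89.2%, against 49.5% of all 5204 transcripts), with a median of 0.17 for these genes and -0.003 for all transcripts. No gene passed an adjusted p of 0.05 in the quasi-likelihood test of edgeR, adjusted by Benjamini-Hochberg (0 of 65, against 0.942% of all transcripts). DESeq2 called 0 as well, against 35 of all 5204 transcripts. At an unadjusted p under 0.05 there were 14, all higher in *arp8-AA* (7.65% of all transcripts were higher and 8.3% lower at that level). *MRPL4* and *MRPL19* had too few counts to be tested.

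Single libraries were compared as well. In 13 of the 65 genes the 3 *arp8-AA* libraries all lay above the 3 *ARP8* libraries (against 8.9% of all transcripts), and in 0 they all lay below (7.26% of all transcripts). Within replicate pairs, 34 genes were higher in *arp8-AA* in all 3 pairs (52.3% against 19.4%) and 2, *MRPL28* and *RSM18*, were lower in all 3 (3.08% against 18.6%). The median log2 ratio was 0.19, 0.10 and 0.21 in pairs 1, 2 and 3. Without replicate 1, whose libraries stood apart, the median log2 fold change was 0.14.

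**Figure D4:**
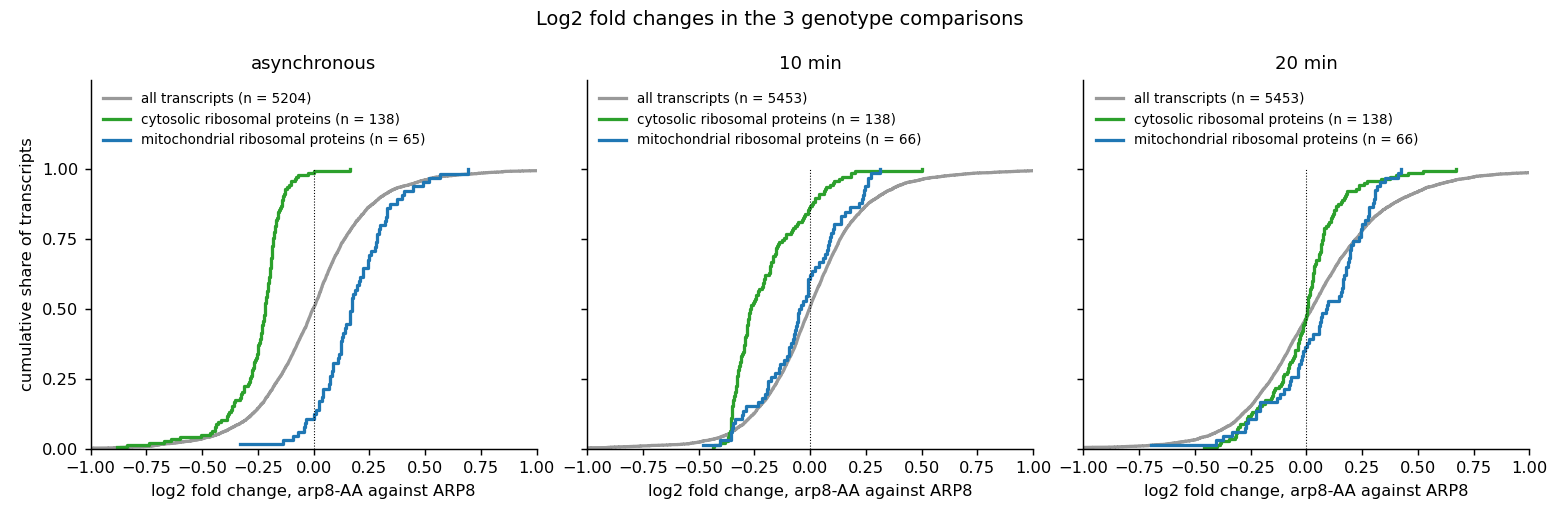
Cumulative share of transcripts (vertical axis) by log2 fold change of *arp8-AA* against *ARP8* (horizontal axis, cropped at -1 and 1) for mitochondrial ribosomal protein genes, cytosolic ribosomal protein genes and all transcripts tested. In asynchronous cultures the curve of the mitochondrial genes lies to the right, with a median of 0.17, and that of the cytosolic genes to the left, with a median of -0.22. At 10 and 20 min after release the medians of the mitochondrial genes were -0.05 and 0.09.

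The lowest p belonged to *MRPL6*, which encodes uL6 of the large subunit. Its CPM, scaled by the trimmed mean of M values (TMM), were 50.4, 68.2 and 70.3 in *ARP8* and 85.6, 91.2 and 92.1 in *arp8-AA*. The groups did not overlap, and the log2 fold change was 0.52 ± 0.13 (SE), with an adjusted p of 0.0945 in the quasi-likelihood test of edgeR, adjusted by Benjamini-Hochberg. Over the alternative settings the adjusted p ranged from 0.0369, without a filter on low counts, to 0.412.

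Next came *MRPL16*, for uL16, a large-subunit protein close to the peptidyl transferase centre in bacteria. It had 62.8, 65.5 and 76.3 CPM in *ARP8* and 87.0, 81.8 and 102 CPM in *arp8-AA*. The groups were separate, with a log2 fold change of 0.40 ± 0.11 (SE) and an adjusted p of 0.136 in the same edgeR test (0.0931 to 0.515 over the alternatives).

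*RSM23* encodes mS29, a GTP-binding protein of the small subunit whose human homologue is DAP3. Its CPM were 60.7, 73.3 and 83.4 in *ARP8* and 99.7, 99.1 and 96.2 in *arp8-AA*. All *arp8-AA* libraries were higher, with a log2 fold change of 0.45 ± 0.13 (SE) and an adjusted p of 0.139 in the edgeR test (0.0732 to 0.428 over the alternatives).

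The genes in this paragraph were chosen for this comparison after their values were seen. *MRPL37* and *MRPS12* meet the rule for named genes by their TPM, and *MRP2* lies outside it. *MRP2* (uS14, a small-subunit protein) had the highest log2 fold change, 0.69 ± 0.20 (SE), from 13.5, 16.1 and 17.2 CPM to 21.9, 29.1 and 24.9 CPM. *MRPL37* had 41.7, 56.3 and 44.5 CPM in *ARP8* and 51.7, 74.0 and 75.1 CPM in *arp8-AA*, so that it was higher in every pair although the groups overlapped. *MRPS12*, among the most abundant transcripts, had 121.9, 117.6 and 104 CPM against 151, 141 and 143 CPM, without overlap.

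In the other direction, *RSM18* (bS18 of the small subunit) was the lowest by fold change among genes of at least 50 CPM. Its CPM were 71.5, 81.1 and 77.8 in *ARP8* and 69.2, 78.9 and 61.8 in *arp8-AA*. The groups overlapped, and its log2 fold change of -0.14 ± 0.12 (SE) had an adjusted p of 0.646 in the edgeR test. *MRPL28* (mL40) was lower within each pair, with 17.3, 9.68 and 17.2 CPM against 13.8, 8.38 and 12.9 CPM. The spread between its replicates was wider than the difference.

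**Figure D5:**
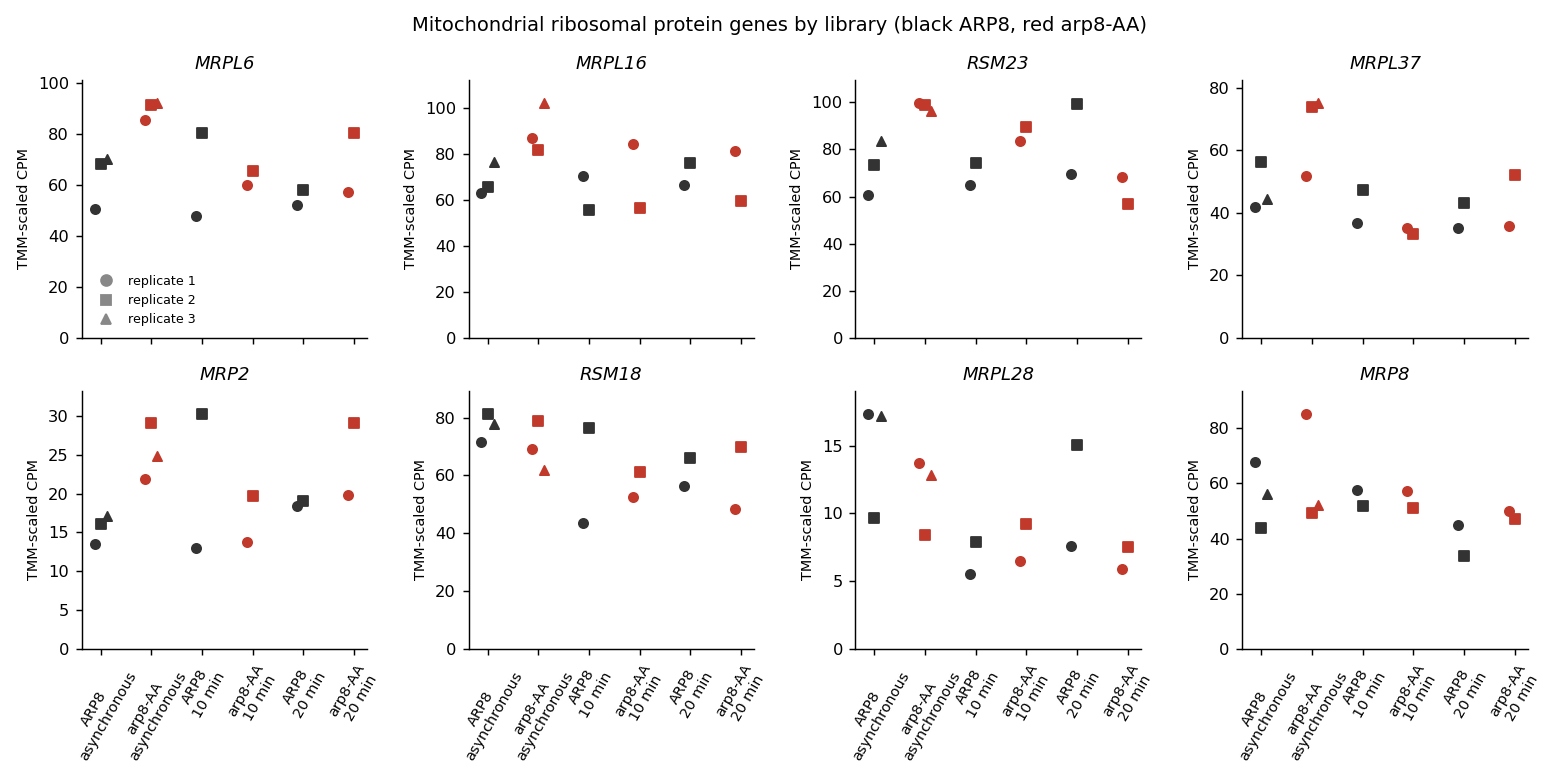
TMM-scaled CPM (vertical axes from 0) of 8 of the genes in each library, by genotype and stage, with symbols for replicates. In asynchronous cultures *MRPL6*, *MRPL16*, *RSM23* and *MRP2* are higher in all *arp8-AA* than in all *ARP8* libraries, while the groups overlap for *MRPL37*, *RSM18*, *MRPL28* and *MRP8*.

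*MRP8*, which is not a ribosomal protein gene, had 67.7, 43.8 and 56.1 CPM in *ARP8* and 85.2, 49.3 and 52.3 CPM in *arp8-AA*. The groups overlapped, and the pairs did not share a direction. *RSM22*, the other gene without a Puf3 motif, had 70.4, 65.5 and 63.7 CPM against 72.5, 76.9 and 80.9 CPM, without overlap.

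Both subunits and both classes of protein took part in the shift. The log2 fold change was above 0 for 30 of 36 large-subunit genes (median 0.17) and 27 of 28 small-subunit genes (median 0.17), and for 35 of 39 genes with a bacterial homologue and 21 of 24 mitochondrion-specific ones. By coding length, the median was 0.11 for the 24 genes of up to 500 bases, 0.16 for the 31 of over 500 and up to 1000 bases and 0.20 for the 10 longer ones, while that of other transcripts in these classes was -0.05, -0.02 and 0.01.

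The other mitochondrial lists given here had medians above 0, and the cytosolic ribosomal protein genes a median below 0. The log2 fold change in asynchronous cultures was above 0 for 13 of 14 mitochondrial ribosomal protein genes with other names (median 0.13) and for 16 of 16 genes of mitochondrial aminoacyl-tRNA synthesis (median 0.33). It was above 0 for 6 of 11 translation factor genes (median 0.18), 6 of 9 assembly genes (median 0.21), 10 of 14 translational activators (median 0.03) and 24 of 39 respiratory chain and ATP synthase genes (median 0.06). For cytosolic ribosomal protein genes it was above 0 in 2 of 138, with a median of -0.22. None of these genes was called in the edgeR test. All genes with a Puf3 motif outside the 67 and outside the mitochondrial lists had a median of 0.04 over 664 transcripts.

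Some single genes bear on the pathway. *VAR1*, the ribosomal protein gene of the mitochondrial genome, had 17.9, 42.4 and 44.5 CPM in *ARP8* and 36.8, 45.9 and 34.0 CPM in *arp8-AA*. *PUF3* had 109, 37.8 and 46.5 CPM in *ARP8* and 53.6, 46.3 and 57.7 CPM in *arp8-AA*. For both genes the groups overlapped, and replicate 1 of *ARP8* was the farthest from the others. The part of these genes, of core histone transcripts (3 of 8 called lower, median -0.37) and of mitochondrially encoded RNA in the difference was not tested.

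After release from arrest, the genotypes were compared at each time. At 10 min, the genes took 0.301 and 0.372% of counts in *ARP8* and 0.341 and 0.338% in *arp8-AA*, in replicates 1 and 2. The *arp8-AA* values lay between the *ARP8* values. The log2 fold change was above 0 for 25 of 66 genes (37.9%, against 49.4% of all 5453 transcripts), with a median of -0.05. The quasi-likelihood test of edgeR, adjusted by Benjamini-Hochberg, called 0 genes (0.0% of all transcripts). It gave 0 at an unadjusted p under 0.05 (2.82% of all transcripts). DESeq2 called 0 genes as well, against 5 of 5453 transcripts. The pairs were opposite: the median log2 ratio was 0.18 in replicate 1 and -0.18 in replicate 2.

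The genes named at 10 min were *MRPL51* (mL43), *MRPL10* (uL15), *RSM27* (mS33) and *RSM23*. *MRPL10* had 108.5 and 144 CPM in *ARP8* and 97.0 and 107 CPM in *arp8-AA*, and *RSM27* 33.1 and 42.4 against 27.1 and 31.9 CPM. Both were lower in each pair, with log2 fold changes of -0.30 ± 0.17 and -0.35 ± 0.21 (SE). *RSM23* was at 65.1 and 74.3 CPM in *ARP8* and 83.7 and 89.5 CPM in *arp8-AA*, a log2 fold change of 0.31 ± 0.20 (SE). *MRPL51*, with 31.2 and 53.9 against 28.7 and 37.2 CPM, overlapped.

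At 20 min, the genes took 0.317 and 0.336% of counts in *ARP8* and 0.339 and 0.372% in *arp8-AA*. The log2 fold change was above 0 for 42 of 66 genes (63.6%, against 53.3% of all transcripts), with a median of 0.09 against 0.02 for all transcripts. None was called in the edgeR test (0.0183% of all transcripts) or by DESeq2 (4 of 5453 transcripts). In edgeR, 0 had an unadjusted p under 0.05 (7.12% of all transcripts). The median log2 ratio was 0.06 in replicate 1 and 0.19 in replicate 2. The lowest library share in *arp8-AA*, 0.339%, was close to the highest in *ARP8*, 0.336%. *RSM10* (uS10) was higher in *arp8-AA*, at 70.4 and 66.8 against 46.9 and 55.8 CPM. *RSM23* had 69.4 and 99.2 CPM in *ARP8* and 68.1 and 57.0 CPM in *arp8-AA*, and *MRPL28* 7.57 and 15.1 against 5.87 and 7.53 CPM. Both were lower in each pair, but the groups came as close as 69.4 and 68.1 CPM for *RSM23* and 7.57 and 7.53 CPM for *MRPL28*. The log2 fold changes of *RSM10*, *RSM23* and *MRPL28* were 0.43 ± 0.23, -0.41 ± 0.20 and -0.70 ± 0.34 (SE).

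Averaged over both time points, the log2 fold change was above 0 for 34 of 66 genes (51.5%, against 49.8% of all transcripts), with a median of 0.02. The edgeR test called 0 (0.0917% of all transcripts), as did DESeq2 (28 of 5453 transcripts). In edgeR, 0 had an unadjusted p under 0.05 (6.38% of all transcripts). The median was -0.07 without *ARP8* 10 min replicate 1 and 0.08 without *ARP8* 10 min replicate 2. *MRPS9* (uS9) was higher in *arp8-AA* in all 4 pairs, with 53.7 and 67.8 against 73.2 and 73.0 CPM at 10 min and 58.8 and 76.8 against 64.2 and 96.6 CPM at 20 min. Its log2 fold change was 0.25 ± 0.13 (SE), that of *RSM10* 0.33 ± 0.17, that of *MRP8* 0.15 ± 0.13 and that of *MRPL3* (mL44) -0.12 ± 0.15. *MRPL3* was at 43.2 CPM in *arp8-AA* at 20 min in replicate 2 and between 63.1 and 74.9 CPM in the other libraries, and without that library its log2 fold change was 0.05.

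The genotype difference at 20 min was compared with that at 10 min as an interaction, which had a median of 0.18 over the 66 genes. The edgeR test called 0 genes (0.0% of all transcripts), as did DESeq2 (1 of 5453 transcripts). In edgeR, 1 gene, *RSM23*, had an unadjusted p under 0.05 (2.02% of all transcripts). By coding length, the median was 0.31 for the 25 genes of up to 500 bases, 0.19 for the 31 of over 500 and up to 1000 bases and -0.04 for the 10 longer ones, beside 0.27, 0.09 and -0.04 for other transcripts in these classes. Without *ARP8* 10 min replicate 2, in which histone transcripts were at 0.541% of counts, the median was -0.03. *RSM23*, higher in *arp8-AA* at 10 min and lower at 20 min, had an interaction of -0.72 ± 0.28 (SE) and an adjusted p of 0.962 in the edgeR test. *MRPL25* (mL59) had 0.64 ± 0.29, *MRPL51* 0.60 ± 0.28 and *MRP21* (bS21) 0.48 ± 0.30.

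Between 10 and 20 min, levels were compared within each genotype. The median log2 fold change was -0.06 in *ARP8* and 0.09 in *arp8-AA*. In either genotype, 0 of 66 genes were called by the edgeR test (0.11 and 0.0183% of all transcripts). DESeq2 called 0 as well (28 and 38 of 5453 transcripts). In edgeR, 3 and 2 genes had an unadjusted p under 0.05 (10.1 and 9.98% of all transcripts). The median log2 ratio in *ARP8* was 0.10 in replicate 1 and -0.17 in replicate 2, and the *ARP8* median was -0.19 without *ARP8* 10 min replicate 1 and 0.10 without *ARP8* 10 min replicate 2. In *ARP8*, *RSM22* went from 55.6 and 61.5 CPM to 80.7 and 77.9 CPM, and *MRP8* from 57.6 and 52.0 CPM to 45.0 and 33.8 CPM. Each moved the same way in both replicates, and their log2 fold changes were 0.43 ± 0.17 and -0.48 ± 0.18 (SE). *MRPL17* (mL46) had 0.45 ± 0.20 and *MRPL10* -0.34 ± 0.17.

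In *arp8-AA*, *RSM23* went from 83.7 and 89.5 CPM at 10 min to 68.1 and 57.0 CPM at 20 min, a log2 fold change of -0.46 ± 0.20 (SE). *MRPL25* went from 23.9 and 32.5 to 33.2 and 43.6 CPM, and *MRPL51* from 28.7 and 37.2 to 35.5 and 54.0 CPM. The log2 fold changes were 0.45 ± 0.20 and 0.44 ± 0.20 (SE), and 0.32 ± 0.21 for *MRP21*, which was at 0.61 without *arp8-AA* 10 min replicate 1 and 0.01 without replicate 2. None passed the adjusted threshold. A p above the threshold, here and above, does not show that levels were equal.

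Whether the genotype difference itself was different between asynchronous and released cultures was tested in a fit of all 14 libraries, chosen after the data were seen. The difference was larger in asynchronous cultures for 51 of 66 genes (77.3%, against 51.1% of all 5493 transcripts), with a median of 0.15. The edgeR test called 0 genes (0.0% of all transcripts), with 6 at an unadjusted p under 0.05 (5.79% of all transcripts), all larger in asynchronous cultures: *MRPS12*, *MRPL37*, *RSM23*, *MRP2*, *RSM28* and *MRPL27*. *MRPS12* had a difference of 0.43 ± 0.16 (SE) and *MRPL37* of 0.57 ± 0.21, both with an adjusted p of 0.845 in that test. The experiment and the state of the cell cycle cannot be told apart here.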

How the data were processed

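RNA-seq of rRNA-depleted total RNA was analysed from 14 libraries. The authors ran kallisto 0.48 at its defaults against yeast transcripts of build R64, annotation 108, and deposited estimated counts and TPM per transcript, each library separately. The estimated counts were rounded and tested with edgeR 4.0.16 (quasi-likelihood, TMM, filterByExpr, Benjamini-Hochberg over all transcripts tested, two-sided), asynchronous and released libraries in separate fits, with the replicate number as a block, as the study used its batch. DESeq2 1.42.0 was an alternative. TPM served to compare levels between genes and to give the range of single genes over libraries, and no genotype test used them.

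The pairing follows the replicate numbers in the labels. Correlations of deviations from group means between same-numbered libraries were 0.174 to 0.329 in asynchronous and 0.478 to 0.653 in released cultures. For different numbers they were -0.299 to 0.180 in asynchronous cultures, so that 1 mismatched pair exceeded the lowest matched one. Subtracting the mean of 3 libraries also lowers the values for different numbers. With 2 libraries in a group the deviations mirror each other. The released values for different numbers, -0.653 to -0.478, were therefore fixed by the matched ones and are no separate evidence. No label ties a number to a day or culture batch. With 3 and 2 replicates, p-values rest on the spread left between these libraries after the replicate block, with information on spread shared across transcripts. CPM are scaled within each experiment, and counts are subject to the depth given with the library totals. Depth gave a median gene of the 67 a mean of 133 estimated counts.

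The 67 genes, the gene lists and the tests were chosen with earlier results of these data known. Named are, per comparison, genes called, the 3 lowest p and, at a mean of at least 50 CPM, the highest and lowest fold change, the 5 highest and 5 lowest levels, *MRP8* and genes sharing 31-mers. Subunits follow the family synonyms in RefSeq, and *RSM22*, which has none, was set to the small subunit. *MRP35* thereby fell in the large subunit, unlike in the planned list, which went by names. Of 6612 IDs, 5929 matched RefSeq names. The sequences are from the R64 genome in RefSeq. The tests were tested on simulated data. Alternatives were no replicate block, DESeq2, RLE scaling, no filter, a looser threshold, only the libraries compared, and leaving out each replicate. Analyses used R 4.3.3, Python 3.11.15, pandas 2.3.3 and matplotlib 3.10.9.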

Additional observations from a re-analysis of the deposited data

How the results depend on the processing

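In asynchronous cultures, 1 of 65 genes, *MRPL6*, was called by edgeR at an adjusted p under 0.1. The share of all transcripts at that threshold is not given here. Without a filter on low counts, edgeR called 1 of 67 genes, again *MRPL6* (log2 fold change 0.52, adjusted p 0.0369), against 158 of 6267 transcripts. Without the replicate block, the replicate pairing was ignored, and the median log2 fold change was 0.17 with 0 genes called, while the count over all transcripts went from 49 to 4. With DESeq2 the median was 0.16, with RLE scaling 0.16. Leaving out 1 replicate gave medians of 0.14 to 0.20, with 51 to 59 genes above 0. After release, leaving out 1 library gave a median interaction between -0.030 and 0.32, lowest without *ARP8* 10 min replicate 2. For *MRPL3* over both times it gave between -0.33 and 0.053, the sign changing without *arp8-AA* 20 min replicate 2. The median ranged from -0.15 to 0.12 at 10 min, 0.04 to 0.17 at 20 min, -0.07 to 0.08 over both times, -0.19 to 0.10 between times in *ARP8* and 0.01 to 0.18 in *arp8-AA*. For *MRP21*, the interaction ranged from 0.16 to 0.76 and the change between times in *arp8-AA* from 0.01 to 0.61. The causes were not tested. Levels under 3 counts per library were not resolved.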
